A study of Mus musculus with 6 samples.

Results

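The heat shock proteins outside the endoplasmic reticulum were described in mouse T helper 1 (Th1) cells treated with LPC. The 10 genes were chosen by symbol: the transcription factor gene Hsf1 and the chaperone genes Hspa1a, Hspa1b, Hspa4, Hspa4l, Hspa8, Hsph1, Hsp90aa1, Hspd1 and Hspe1. All 10 were present among the 18046 genes listed for each library. Naive CD4+ T cells from the spleen of C57BL/6 mice aged 3 weeks were cultured for 3 days. Both groups received antibodies to CD3 and CD28 and Th1-polarizing conditions, with 20 µM LPC (n = 3) or with vehicle (n = 3). The labels neither spell out LPC nor name the vehicle, nor do they tell whether replicates were separate mice or wells. Any p-value here thus reflects the spread among these 6 libraries, and that spread may be technical. The comparison asked how LPC altered the expression of these genes during Th1 differentiation.

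Heat shock proteins are chaperones that bind unfolded proteins and help them reach or regain their folded form. In the cytosol, HSP70 proteins bind and release clients in a cycle driven by ATP, HSP110 proteins (encoded by Hsph1, Hspa4 and Hspa4l) reload them with nucleotide, and HSP90 acts on more mature clients such as kinases and steroid receptors. In mitochondria, HSP60 (Hspd1) forms a folding chamber that HSP10 (Hspe1) closes. When proteins unfold, the factor HSF1 binds heat shock elements, which are inverted repeats of the unit GAA, and raises the transcription of many of these genes. In activated T cells, which grow and divide rapidly, constitutive chaperones are abundant.

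The unit, FPKM, divides fragments by transcript length and by mapped reads, so levels can be compared between genes. The FPKM sum was 562046 to 641026 in LPC libraries and 556561 to 588274 in vehicle libraries. Low values came nearest to whole reads at 19.1 to 19.5 M reads per library, an estimate of depth. The T cell genes Cd3e, Cd3d, Cd3g, Cd247, Lat and Cd4 were all listed at 91.2 FPKM or more in every library. Markers of B cells, myeloid cells, NK cells and dendritic cells stayed at or below 0.63 FPKM, with Ncr1 and Klra8 at 0 throughout, and Cd8a stayed at or below 0.33 FPKM although Cd8b1 reached 14.2 FPKM. The summed level of the 6 listed myeloid markers was 0.33 to 0.47 FPKM in LPC libraries and 0.05 to 0.19 FPKM in vehicle libraries, that of the 4 B cell markers was 0.52 to 0.85 FPKM and 0.97 to 1.02 FPKM, and their part in the results was not tested. Of the T cell genes none was called, although Cd4 lay below in every LPC library (log2 change -0.27, limma adjusted p = 0.0875). LPC replicate 3 stood apart in transcript length: with genes divided into 10 equal bins by length, its median deviation from the LPC mean was 0.18 on the log2 scale in the shortest bin and -0.19 in the longest. LPC replicate 2 leaned the other way (-0.13 and 0.14). These are bulk samples, in which fewer cells of a type and less RNA per cell cannot be told apart.

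Levels ran from among the most abundant transcripts to barely detected ones. Hspa8, the constitutive HSP70 of the cytosol, averaged 1469 FPKM over the 6 libraries and ranked number 77 of 18046 genes. Hspe1 (260.8 FPKM), Hsp90aa1 (228.1) and Hspd1 (195.2) followed, then Hspa4 (64.3), Hsf1 (28.3), Hsph1 (13.5) and Hspa4l (8.95). The heat-inducible HSP70 genes Hspa1b (1.04 FPKM) and Hspa1a (0.395) came last. Each gene lay above the next in this order in 6 of 6 libraries, with the exception of Hspe1 over Hsp90aa1, which held in 4 of 6 libraries. The neighbours Hspe1 and Hsp90aa1 were therefore not separated beyond their spread.

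**Figure D1:**
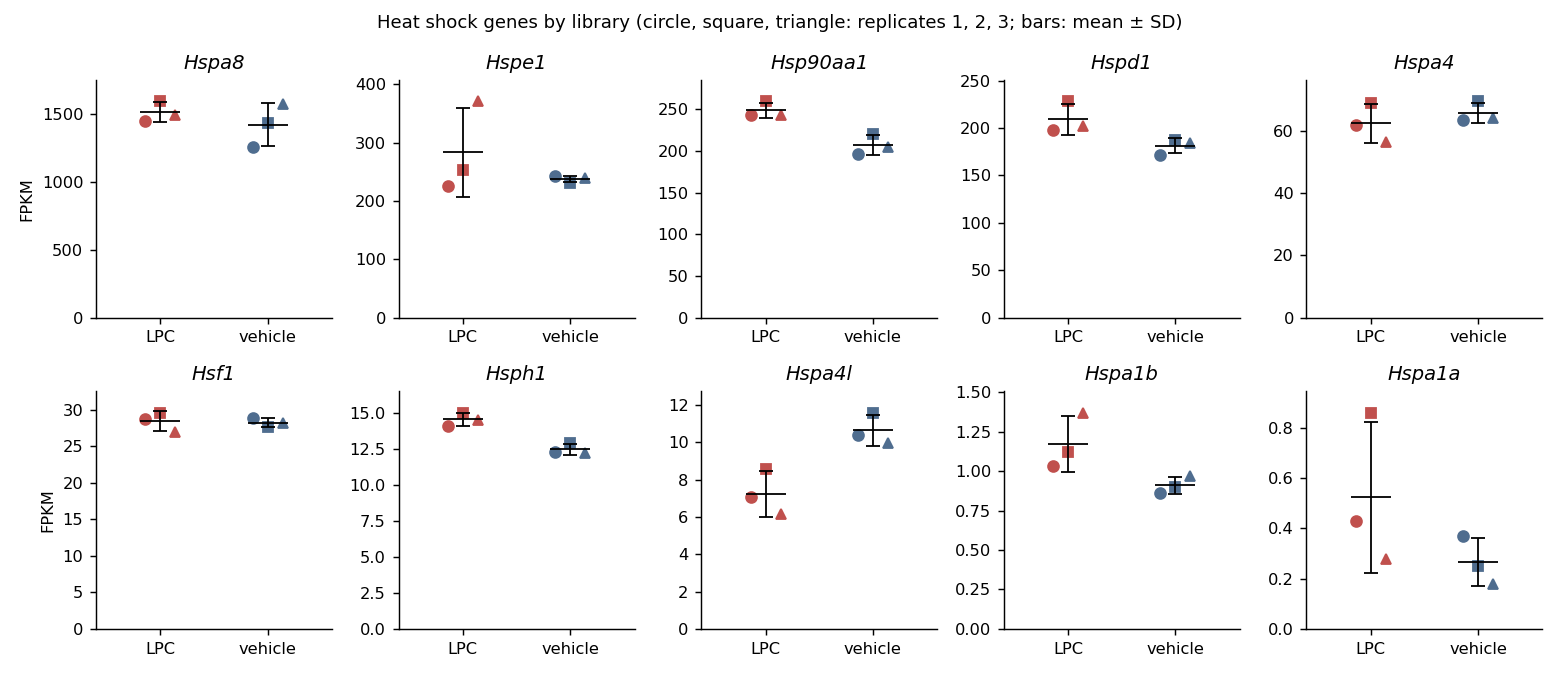
FPKM of each of the 10 heat shock genes (y axis, from 0, a scale per gene) in the 3 LPC and the 3 vehicle libraries, ordered by mean level. Points are libraries and bars are the mean with its SD. The LPC libraries of Hspa4l lie below all vehicle libraries, those of Hsph1, Hsp90aa1 and Hspd1 lie above, and Hspe1 has 1 high LPC library at 371.1 FPKM.

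Of the 8 members that passed the filter on low values in both groups, 1 fell, Hspa4l, and none rose at an adjusted p under 0.05 (limma with Benjamini-Hochberg adjustment over all 10138 tested genes). Among all tested genes 13.7% were called, 5.82% as higher and 7.91% as lower with LPC, so 1 call is near the background. Of the calls over all genes 42.4% were higher with LPC, and 53.1% were with median centring. Of the other two members, Hspa1a was under the filter of 1 FPKM in 3 or more libraries and was not tested. Hspa1b passed it through its 3 LPC libraries alone, so its direction was favoured by the filter and it is left out of the counts. Of the 8, Hsph1, Hsp90aa1 and Hspd1 had every LPC library above every vehicle library, where 13.7% of all tested genes did, and Hspa4l had every LPC library below, where 20.7% did (34.5% in either direction). At an unadjusted p under 0.05 the limma fit gave the same 3 as higher and Hspa4l as lower, against 30.1% of all tested genes in either direction.

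**Figure D2:**
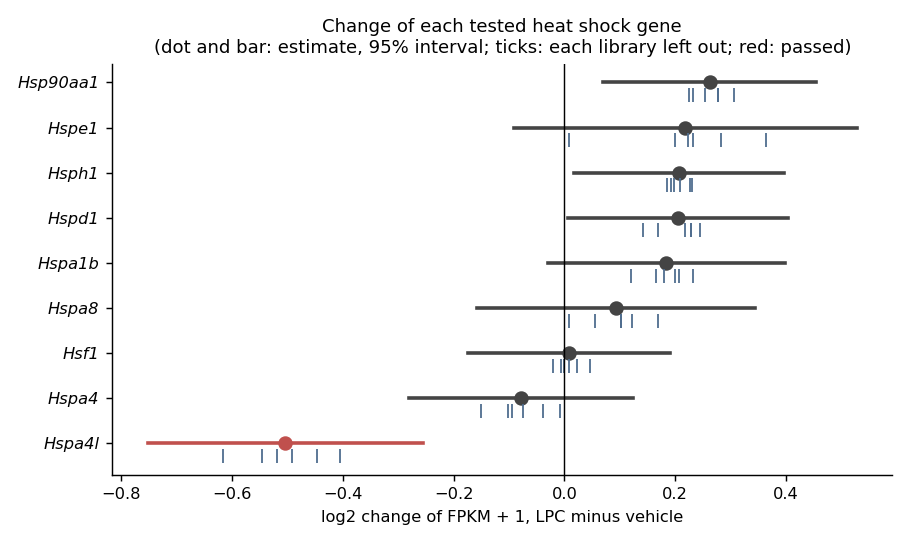
Log2 change of FPKM + 1, LPC minus vehicle (x axis), of the 9 members that were tested, from the largest to the lowest. Hspa1b passed the filter on low values through its LPC libraries alone, which favoured its direction. Dots and bars are the estimate and its 95% interval, ticks below are the estimates with each library left out, and red marks an adjusted p under 0.05. The interval of Hspa4l ends at -0.26, and the estimates of Hspe1 with a library left out run from 0.01 to 0.36.

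Hsf1, whose product is the main transcription factor of the heat shock response, lies on chromosome 15 at 76477362 to 76501155 of GRCm38. It was listed at 28.8, 29.6 and 27.0 FPKM in LPC libraries, against 28.9, 27.7 and 28.2 FPKM in vehicle libraries. The groups overlapped and their means were 28.4 ± 1.35 and 28.2 ± 0.600 FPKM (SD, n = 3 each). The log2 change was 0.01 with a 95% interval of -0.17 to 0.19 (limma adjusted p = 0.96), and the sign turned after removal of each library's trend with GC share and length (-0.039), and it also turned when vehicle replicate 2 (-0.0062) or LPC replicate 2 (-0.020) was left out. The transcript level does not measure HSF1 activity, which is controlled largely on the protein.

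The inducible HSP70 genes Hspa1a and Hspa1b are direct HSF1 targets and rise strongly with heat. Both consist of 1 exon on the minus strand of chromosome 17, Hspa1a at 34969359 to 34972156 and Hspa1b at 34956429 to 34959238. Their transcripts share 93.6% of 2735 aligned bases, so reads can be divided between them only by estimate and the split is uncertain. The promoter of Hspa1a is shown because the copies are near-identical there as well: the Hspa1b window differs from that of Hspa1a by C44T, T47C, T249G and C276T (Hspa1a base, position from the window's 5′ end, Hspa1b base; 98.7% identical). The window, chr17:34972107-34972406 on the minus strand of GRCm38.p6 (RefSeq), runs from 250 bases before to 50 bases after the gene start, and capitals mark the GAA and TTC units of a match to a heat shock element.
Hspa1a: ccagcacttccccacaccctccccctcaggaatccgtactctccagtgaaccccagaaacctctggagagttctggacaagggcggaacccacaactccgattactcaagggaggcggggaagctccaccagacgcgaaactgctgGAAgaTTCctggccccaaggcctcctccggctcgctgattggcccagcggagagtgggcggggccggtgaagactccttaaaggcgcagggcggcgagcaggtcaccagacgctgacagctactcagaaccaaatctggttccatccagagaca
The match GAANNTTC stands at position -104 from the start in both copies, and neither window held 3 such units in a row. Only exact units at this spacing were searched for, so imperfect or gapped elements would be missed. Either GAANNTTC or TTCNNGAA, each of which reads the same on both strands, occurs in 15.1% of the 32851 RefSeq promoter windows of this length.

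Both copies were expressed at a low level in every library. Hspa1a was listed at 0.43, 0.86 and 0.28 FPKM in LPC libraries, against 0.37, 0.25 and 0.18 FPKM in vehicle libraries. At the estimated depth these values stand for about 15 to 46 and 10 to 20 reads. The groups overlapped, and LPC replicate 2 held the high value. Hspa1b stood for about 56 to 74 reads in LPC libraries and 47 to 53 in vehicle libraries. It was listed at 1.03, 1.12 and 1.37 FPKM in LPC libraries, against 0.86, 0.90 and 0.97 FPKM in vehicle libraries (log2 change 0.18, 95% interval -0.03 to 0.40, limma adjusted p = 0.231). Here the groups did not overlap. With no filter on low values Hspa1a had a log2 change of 0.25 (limma adjusted p = 0.339) and Hspa1b of 0.18 (0.22). The sum of both copies, which the split of reads does not touch, was 1.46, 1.98 and 1.65 FPKM in LPC libraries, against 1.23, 1.15 and 1.15 FPKM in vehicle libraries. The sums did not overlap, yet they stayed under 2 FPKM in all libraries.

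Hspa8, which encodes the constitutive HSP70 (HSC70), had 1452, 1596 and 1494 FPKM in LPC libraries, against 1261, 1437 and 1574 FPKM in vehicle libraries. The groups overlapped, and the vehicle libraries alone spread by a coefficient of variation of 11.0%. The log2 change was 0.09, with a 95% interval of -0.16 to 0.34 (limma adjusted p = 0.626). Hspa8 lies on chromosome 9 at 40801276 to 40805202, and the annotation places 3 small nucleolar RNA genes within it. Within a library, Hspa8 was 902 ± 94.5 times the summed level of Hspa1a and Hspa1b with LPC and 1215 ± 175 times with vehicle (SD, n = 3 each). That summed level was only 1.15 to 1.98 FPKM, so the ratio rests on values near the floor. Its difference between groups was not tested.

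Among the HSP110 genes 1 fell and the other two did not pass the test. Hspa4l, also called Apg-1 and best known from testis, fell to 7.05, 8.58 and 6.14 FPKM in LPC libraries, against 10.4, 11.6 and 9.96 FPKM in vehicle libraries. The groups did not overlap. The means were 7.26 ± 1.23 and 10.6 ± 0.846 FPKM (SD, n = 3 each), with a log2 change of -0.50 (SE 0.12, 95% interval -0.75 to -0.26, limma adjusted p = 0.0132). Its annotated transcript length is 9479 bases, which puts it in the longest length bin, whose median log2 change was -0.14. After removal of each library's trend with GC share and length, its log2 change was -0.31 (limma adjusted p = 0.00605). The call was lost when vehicle replicate 2 (-0.45, adjusted p = 0.0542) or LPC replicate 1 (-0.49, 0.0567) was left out, or with no filter on low values (-0.50, 0.0788).

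Hsph1, which encodes the heat-inducible HSP105, had a positive log2 change that did not pass the test. It was listed at 14.1, 15.0 and 14.5 FPKM in LPC libraries, against 12.3, 12.9 and 12.2 FPKM in vehicle libraries. The groups were narrow and did not overlap (log2 change 0.21, 95% interval 0.02 to 0.40, limma adjusted p = 0.135). Hsph1 passed with quantile normalization (0.26, adjusted p = 0.0475), with median centring (0.25, 0.0479) and once GC and length trends were removed (0.29, 0.00779). It did not pass in any fit with a library left out (0.149 to 0.331). Hspa4, which encodes the more abundant Apg-2, was listed at 62.2, 69.0 and 56.6 FPKM in LPC libraries, against 63.7, 69.7 and 64.5 FPKM in vehicle libraries. Those groups overlapped (log2 change -0.08, 95% interval -0.28 to 0.12, limma adjusted p = 0.609), and the sign turned once GC and length trends were removed (0.035).

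The contrast within the family was also read as a ratio within each library. Hsph1 stood at 2.00, 1.75 and 2.36 times Hspa4l in LPC libraries, against 1.19, 1.11 and 1.22 times in vehicle libraries. The ratio of Hsph1 to Hspa4 was 0.227, 0.218 and 0.256 in LPC libraries, against 0.193, 0.185 and 0.189 in vehicle libraries. Neither set of ratios overlapped between groups. The two-sided exact permutation test gave p = 0.10 for each ratio, the smallest value that 3 against 3 libraries allow. The value was 0.133 after Benjamini-Hochberg adjustment over the 4 ratios tested. For Hsph1 over Hspa4l the separation and its p-value were fixed by the levels above, so they add no support. Hspa4l and Hspa4 lie in length bins with median log2 changes of -0.14 and -0.10. The part of length in the ratios was not tested. The ratios were chosen with the values known.

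Windows around RefSeq starts of Hsph1 and Hspa4l, whose log2 changes had opposite signs, are shown to set their sequences side by side. Capitals mark units of heat shock element matches, the windows run from 250 bases before to 50 bases after such a start, and they are chr5:149636287-149636586 on the minus strand for Hsph1 and chr3:40745363-40745662 on the plus strand for Hspa4l (GRCm38.p6). The Hspa4l start used lies 1113 bases past the annotated start of the gene, so its window lies wholly inside the gene and does not cover the sequence before the first annotated start. The Hsph1 start used lies 162 bases past that gene's annotated start, and a second Hsph1 window, 21 bases further on, held the same matches.
Hsph1: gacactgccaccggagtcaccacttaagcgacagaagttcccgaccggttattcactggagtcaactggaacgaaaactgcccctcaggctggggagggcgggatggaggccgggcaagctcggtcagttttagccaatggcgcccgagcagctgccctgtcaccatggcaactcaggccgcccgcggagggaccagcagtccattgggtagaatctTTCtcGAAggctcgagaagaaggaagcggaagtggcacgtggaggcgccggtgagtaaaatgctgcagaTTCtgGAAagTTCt
Hspa4l: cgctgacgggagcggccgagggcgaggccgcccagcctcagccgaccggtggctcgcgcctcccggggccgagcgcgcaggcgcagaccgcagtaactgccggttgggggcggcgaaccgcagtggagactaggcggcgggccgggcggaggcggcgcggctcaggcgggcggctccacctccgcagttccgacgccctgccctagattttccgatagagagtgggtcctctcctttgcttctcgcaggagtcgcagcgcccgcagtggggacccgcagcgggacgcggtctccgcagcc
The Hsph1 window held TTCNNGAA at position -33 and, after the start, the overlapping 3 units TTCNNGAANNTTC at position 37. Either TTCNNGAANNTTC or its reverse complement GAANNTTCNNGAA occurs in 0.603% of all 32851 windows. The window of Hspa4l, with a GC share of 74.7%, and that of Hspa4, with 62.7%, held no match to these letters. The Hsph1 window has a GC share of 59.0%. A link between these matches and the log2 changes was not tested.

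**Figure D3:**
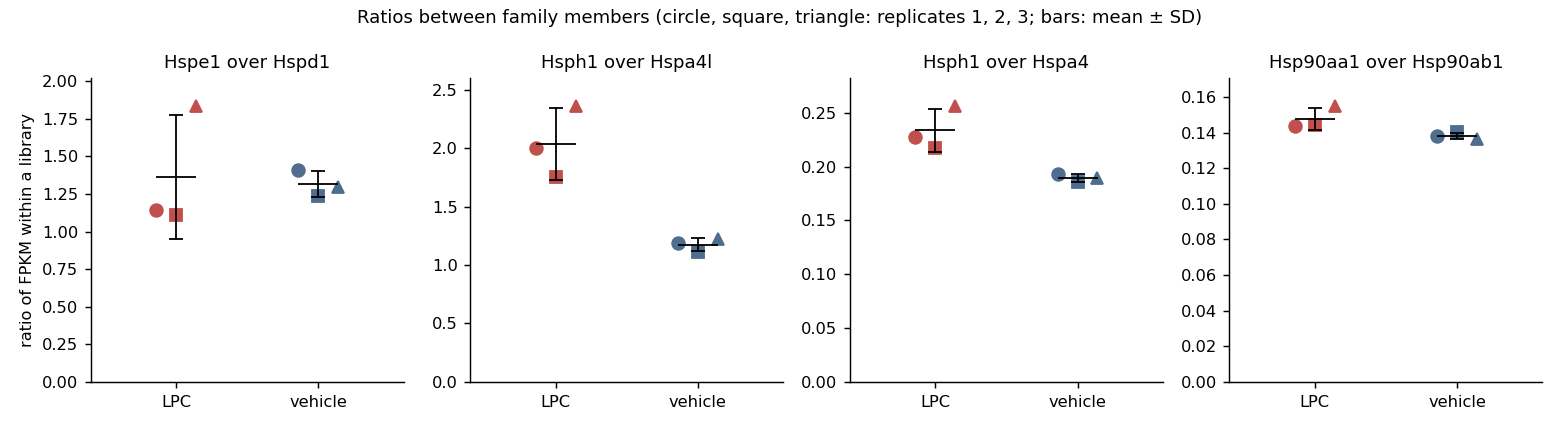
Ratios of FPKM between pairs of genes within a library (y axis, from 0) in the 3 LPC and the 3 vehicle libraries. Points are libraries and bars the mean with its SD. Hsph1 over Hspa4l averages 2.04 in LPC libraries and 1.18 in vehicle libraries, Hsph1 over Hspa4 and Hsp90aa1 over Hsp90ab1 do not overlap between groups, and Hspe1 over Hspd1 does.

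Hsp90aa1, which encodes the stress-responsive HSP90 alpha, was listed at 243.4, 259.6 and 243.5 FPKM in LPC libraries, against 196.8, 220.5 and 205.1 FPKM in vehicle libraries. Every LPC library lay above every vehicle library, by a ratio of means of 1.20. The log2 change was 0.26 (SE 0.09, 95% interval 0.07 to 0.45) and did not pass (limma adjusted p = 0.068). Median centring (0.31, adjusted p = 0.0438), the replicate block (0.26, 0.0169) and removing GC and length trends (0.37, 0.00246) each let it pass. It did not pass with quantile normalization (0.21, 0.124), with no filter on low values (0.26, 0.0948) or in any fit with a library left out (0.054 to 0.277). Hsp90ab1, the constitutive HSP90 beta gene, was listed at 1688 ± 113 FPKM with LPC and 1500.4 ± 74.2 FPKM with vehicle (SD, n = 3 each; log2 change 0.17, limma adjusted p = 0.324). The ratio of the alpha to the beta gene was 0.144, 0.144 and 0.155 in LPC libraries, against 0.138, 0.140 and 0.137 in vehicle libraries. These did not overlap (exact permutation p = 0.10, adjusted 0.133). Hsp90aa1 lies on the minus strand of chromosome 12 at 110691036 to 110696395.

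The mitochondrial chaperonin genes Hspd1 and Hspe1 lie head to head on chromosome 1, Hspd1 on the minus strand at 55077833 to 55088243 and Hspe1 on the plus strand at 55088148 to 55091317. Their annotated ends overlap by 96 bases, and the labels do not say whether counting used strand. The window of Hspe1 is shown because its start and 1 of the 2 Hspd1 starts in RefSeq fall in it. This Hspe1 window, chr1:55087898-55088197 on the plus strand of GRCm38.p6, shares 285 bases with the window of that Hspd1 start, which lies 311 bases past the annotated start of Hspd1.
Hspe1: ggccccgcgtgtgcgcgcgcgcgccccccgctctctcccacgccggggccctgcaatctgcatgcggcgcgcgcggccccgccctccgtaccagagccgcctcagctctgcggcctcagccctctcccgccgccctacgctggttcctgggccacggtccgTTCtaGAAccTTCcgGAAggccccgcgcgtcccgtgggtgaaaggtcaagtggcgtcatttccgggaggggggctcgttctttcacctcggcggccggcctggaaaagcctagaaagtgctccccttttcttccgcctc
Capitals again mark heat shock element units. The run of TTC and GAA units forms the 3 units TTCNNGAANNTTC at position -89 and, overlapping it, GAANNTTCNNGAA at position -84 from the Hspe1 start. The window of the other Hspd1 start, at the annotated start of the gene, held no match.

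The transcripts of the pair differed in their spread between LPC libraries. Hspd1 was listed at 197.6, 228.1 and 202.1 FPKM in LPC libraries, against 172.0, 187.1 and 184.4 FPKM in vehicle libraries. The groups did not overlap (log2 change 0.21, 95% interval 0.01 to 0.40, limma adjusted p = 0.155). Hspd1 passed once GC and length trends were removed (0.27, 0.0098), and with quantile normalization its log2 change was 0.13 (0.394). Hspe1 was listed at 226.3, 253.1 and 371.1 FPKM in LPC libraries, against 242.8, 231.8 and 239.5 FPKM in vehicle libraries. LPC replicate 3 was far above, and LPC replicate 1 was the lowest of the 6 libraries. The log2 change of Hspe1 was 0.22 (95% interval -0.09 to 0.53, limma adjusted p = 0.326), and 0.01 without LPC replicate 3 (0.964). Once GC and length trends were removed, the log2 change of Hspe1 was 0.11 (limma adjusted p = 0.4625). Its transcript, at 774 bases, falls in the shortest length bin. In LPC replicate 3 it deviated by 0.42 from the LPC mean on the log2 scale, where that bin had a median of 0.18, and the part of length in this value was not tested. The ratio of Hspe1 to Hspd1 was 1.15, 1.11 and 1.84 in LPC libraries, against 1.41, 1.24 and 1.30 in vehicle libraries. The groups overlapped (exact permutation p = 1). In RefSeq 23 pseudogenes carry the name of Hspd1 and 7 that of Hspe1, so reads of both genes may be shared with copies.

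As a description of likeness, Pearson's r of log2(FPKM + 1) over the 6 libraries was computed between each member and all tested genes. Such a value mixes the difference between groups with library effects, and among 10138 genes many reach a high r over 6 points. Nearest to Hsf1 outside the chaperone lists were Zfp747 (r = 0.98), Sash3 (0.97) and F3 (0.97). Nearest to Hspa8 were Cep89 (0.96), Mansc1 (0.96) and Evi2a (0.94), and nearest to Hspd1 were Pitrm1 (1.00), which encodes a mitochondrial peptidase, Zfp410 (0.99) and Nln (0.99), which encodes the peptidase neurolysin. Among the members themselves Hsp90aa1 and Hsph1 had r = 0.98, Hsp90aa1 and Hspd1 0.94, and Hspd1 and Hspe1 0.27.

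The partners of these chaperones were described from lists chosen beside the members. Of 5 tested further genes of the HSP70 and HSP90 families 1 rose and none fell. Among all tested genes 5.82% rose and 7.91% fell. Trap1, the mitochondrial HSP90, rose to 49.4 ± 1.85 FPKM with LPC, against 40.1 ± 0.974 FPKM with vehicle (SD, n = 3 each; log2 change 0.29, limma adjusted p = 0.034). Leaving out vehicle replicate 1, 2 or 3 ended the call (adjusted p = 0.139, 0.161 and 0.0748), as did leaving out LPC replicate 1 (0.0609). Hspa9, the mitochondrial HSP70 that works with HSP60, was listed at 277.4 ± 26.9 and 266.1 ± 8.89 FPKM (0.06, adjusted p = 0.734). The median log2 change of the list was 0.07 (0.02 with quantile normalization), where that of all tested genes was -0.04.

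HSP90 cochaperones counted 3 rises and no fall among 17 tested genes, where 5.82% of all tested genes rose and 7.91% fell, with a median log2 change of 0.10. Fkbp4, an immunophilin of steroid receptor complexes, was listed at 88.0, 82.8 and 94.9 FPKM in LPC libraries, against 68.5, 68.5 and 69.5 FPKM in vehicle libraries (log2 change 0.36, limma adjusted p = 0.0163). Fkbp8 rose by 0.42 (adjusted p = 0.0352) and Ppid, which encodes cyclophilin 40, by 0.32 (0.0404). In 8 of the 17 genes every LPC library lay above every vehicle library, and in 1, Ptges3 (p23), every LPC library lay below (-0.11, adjusted p = 0.415), where 13.7% of all tested genes lay above and 20.7% below. Among the 8, named after their values were seen, were Ahsa1 (0.27, adjusted p = 0.0528), Cdc37 (0.29, 0.0582) and Stip1 (0.24, 0.0749), which link HSP90 to its ATP cycle, to kinases and to HSP70. No rise was called without vehicle replicate 1 or 2, and 1 without LPC replicate 3. Fkbp4 then had adjusted p = 0.0817 and 0.0748 without vehicle replicates 1 and 2. Fkbp8 missed when vehicle replicate 1 or 2 (0.108 and 0.107) or LPC replicate 1 or 3 (0.139 and 0.0681) was left out, and Ppid passed without LPC replicate 1 alone (0.0385), with 0.0628 to 0.196 in the other fits. Fkbp8 also missed with quantile normalization (0.0609) and with median centring (0.068). With no filter on low values 1 rose, and with removal of GC and length trends 6 did.

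Cofactors that act on HSP70 itself moved in single genes. Of 11 nucleotide exchange factors and other cofactors 1 rose, Hspbp1, which encodes an exchange factor of HSP70. It was listed at 52.1, 41.4 and 59.0 FPKM in LPC libraries, against 31.9, 29.6 and 32.0 FPKM in vehicle libraries (log2 change 0.67, SE 0.11, limma adjusted p = 0.00304), and it passed in all 6 fits with a library left out. Bag3, an HSF1 target, was listed at 5.84 ± 0.969 and 6.78 ± 0.540 FPKM (-0.19, adjusted p = 0.278). Of 21 J-domain genes, whose products deliver clients to HSP70, 1 rose and 1 fell. Among all tested genes 5.82% rose and 7.91% fell, so the counts of both lists are near the background. The J-domain median log2 change was -0.07, and it was -0.018 with median centring and -0.00067 once GC and length trends were removed. Dnajc11 rose by 0.28 (adjusted p = 0.045) and Dnajb2 fell by 0.33 (0.0395). Dnajc11 passed in 1 of the 6 fits with a library left out, that without LPC replicate 3 (0.029), and Dnajb2 in 2, those without LPC replicate 2 (0.0452) and LPC replicate 3 (0.0201). Dnajb2 also missed with quantile normalization (0.089) and with median centring (0.0746). Dnajb1, the heat-inducible HSP40, was listed at 21.8, 22.6 and 25.8 FPKM in LPC libraries, against 25.7, 24.7 and 23.9 FPKM in vehicle libraries. These groups overlapped (-0.08, adjusted p = 0.585).

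Among 14 tested subunits of the TRiC chaperonin and of prefoldin, which fold actin and tubulin, 3 rose and none fell, where 5.82% of all tested genes rose and 7.91% fell. The median log2 change was 0.07, and 0.018 with quantile normalization. In 4 of the 14 every LPC library lay above every vehicle library, and in 2, Cct4 (-0.17, adjusted p = 0.23) and Vbp1 (-0.24, 0.0821), every LPC library lay below, where 13.7% and 20.7% of all tested genes did. Cct4, Vbp1 and Ptges3 were named after their values were seen. Pfdn6 was listed at 59.6, 54.9 and 74.3 FPKM in LPC libraries, against 42.7, 40.7 and 42.2 FPKM in vehicle libraries (0.57, limma adjusted p = 0.00534). Pfdn2 rose by 0.33 (adjusted p = 0.0461) and Cct3 by 0.29 (0.0373). Without any 1 vehicle library, or without LPC replicate 1, 1 rise was called, that of Pfdn6. Cct3 had adjusted p = 0.0723 to 0.165 and Pfdn2 0.0974 to 0.156 in those fits. Pfdn2 also missed without LPC replicate 3 (0.1065), with quantile normalization (0.0619) and with median centring (0.0687), and Cct3 with quantile normalization (0.0997). The Pfdn6 transcript, at 684 bases, is in the shortest length bin, and its log2 change was 0.40 after removal of GC and length trends. Of 9 mitochondrial protease and import genes none was called (limma), where 13.7% of all tested genes were. At an unadjusted p under 0.05 the limma fit gave 1 of the 9, against 30.1% of all tested genes. The median log2 change of these 9 was -0.02, and 0.03 with median centring.

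Of the small heat shock proteins 1 gene, Hspb6, was expressed above the filter, and it fell. It was listed at 14.1, 11.8 and 10.8 FPKM in LPC libraries, against 18.5, 21.9 and 22.2 FPKM in vehicle libraries (log2 change -0.73, SE 0.11, limma adjusted p = 0.00171), and it passed in all 6 fits with a library left out. Hspb1, the heat-inducible HSP27 gene, stayed at or below 0.46 FPKM. Hsf2, a second heat shock factor, fell to 12.2, 13.9 and 11.0 FPKM in LPC libraries, against 15.7, 18.5 and 17.2 FPKM in vehicle libraries (-0.44, adjusted p = 0.0155). The call was lost when vehicle replicate 2 (0.0755) or LPC replicate 1 (0.0567) was left out.

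**Figure D4:**
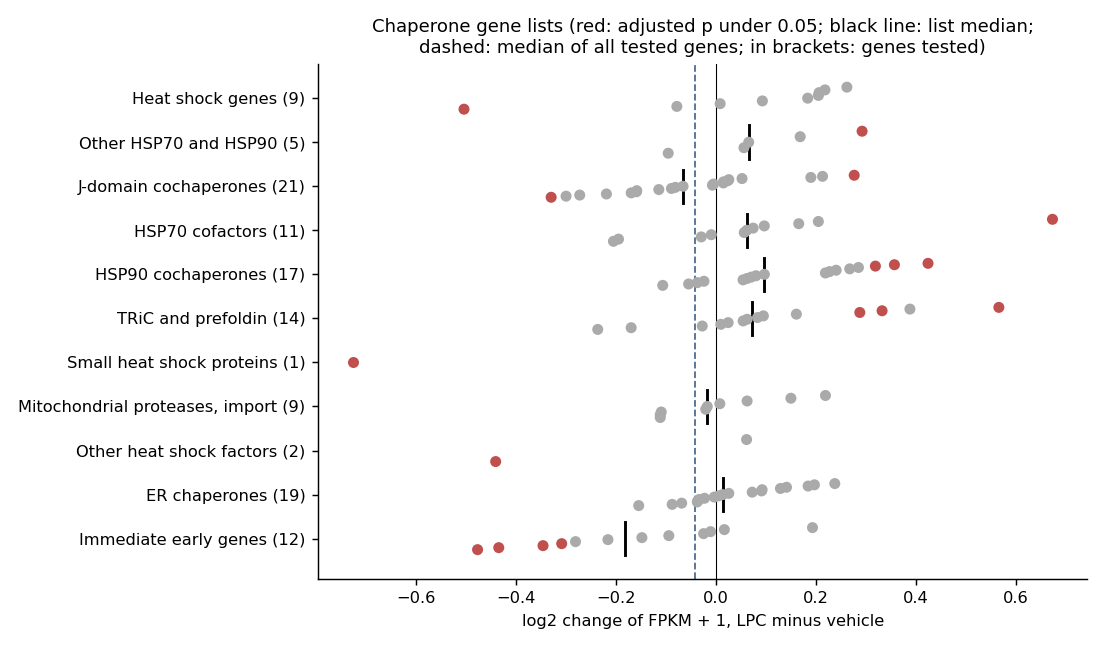
Log2 change of FPKM + 1, LPC minus vehicle (x axis), of each tested gene in the chaperone lists (rows, with the number tested). Red marks an adjusted p under 0.05, black lines are medians of lists with 5 or more tested genes other than the members, and the dashed line is the median of all tested genes at -0.04. The HSP90 cochaperones hold 3 red points on the right and none on the left, and the immediate early genes 4 on the left, 1 of them Fosb, which passed the filter through its vehicle libraries alone.

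Chaperone and stress genes of the endoplasmic reticulum, the compartment left out of the members, gave no call among 19 tested genes (limma). Among all tested genes 13.7% were called. At an unadjusted p under 0.05 the limma fit gave 1 of the 19, against 30.1% of all tested genes. Their log2 changes were -0.15 to 0.24, with a median of 0.01 that was -0.01 with quantile normalization. The difference from the cytosolic lists was not tested. Of the 11 immediate early genes that passed the filter in both groups, none rose and 3 fell (median -0.15). Of all tested genes 5.82% rose and 7.91% fell. This class also rises when cells are handled, and the part of handling in these values was not tested. Jun fell by 0.48 (adjusted p = 0.0118), Fos by 0.43 (0.0149) and Zfp36 by 0.31 (0.0364). Fosb (-0.35, 0.0344) passed the filter through its 3 vehicle libraries alone, so its direction was favoured by it and it is not counted. No call was made in that list without vehicle replicate 1, and 1 without vehicle replicate 2. Jun had adjusted p = 0.0636 without vehicle replicate 1. Fos missed when vehicle replicate 1 or 2 (0.0552 and 0.07) or LPC replicate 1 (0.0607) was left out, Fosb passed in none of the 6 fits with a library left out (0.0507 to 0.141), and Zfp36 passed without LPC replicate 1 alone (0.0352), with 0.0544 to 0.122 in the others. With median centring Fosb (0.0559) and Zfp36 (0.0737) missed, and Fosb did with quantile normalization (0.0986). With no filter on low values, where 16899 genes were tested, Trap1, Hspbp1, Fkbp4 and Hspb6 passed among the named genes of these lists, and the other 12 that had passed did not.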

How the data were processed

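Libraries of total RNA from 6 samples of mouse T cells (3 with LPC, 3 with vehicle) were read by a BGISEQ-500 instrument. Per the labels' protocols, the authors aligned reads to GRCm38 with Bowtie2 and deposited FPKM per gene from RSEM; tool versions and strandedness: not given in the sources used here. FPKM values are relative within a library, and RSEM divides reads between similar genes by estimate. Gene symbols that a spreadsheet had turned into dates were restored for 24 genes, and 17918 of 18046 gene IDs matched RefSeq.

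Values were taken as log2(FPKM + 1). Genes with 1 FPKM or more in 3 or more libraries (10138) were tested with limma 3.58.1 (R 4.3.3, lmFit and eBayes with trend, two-sided), with Benjamini-Hochberg adjustment over all of them and a threshold of 0.05. The script was tested on simulated data. Alternatives were a pseudocount of 0.1, no filter, a mean of 5 FPKM or more, quantile normalization, median centring, the replicate number as a block, each library left out and, added after seeing the data, removal of GC and length trends (natural splines, 4 degrees of freedom).

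The members and lists were chosen with earlier results of these data known. All members were named, with 7 fixed genes (Hsp90ab1, Hspa9, Trap1, Dnajb1, Hspb1, Bag3 and Hsf2), up to 4 called genes per list by size of change, and the 3 genes most like Hsf1, Hspa8 and Hspd1. Promoter windows came from RefSeq (GRCm38.p6), which held 7 of the 10 members, and both strands were searched.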

Additional observations from a re-analysis of the deposited data

How the results depend on the processing

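The number of genes called, 1392 with the settings of the report, was 464 with no filter on low values, 2841 with the replicate block, 2327 with removal of GC and length trends, and 513 to 2026 with a library left out (513 without vehicle replicate 1, 566 without vehicle replicate 2, 702 without LPC replicate 1). Of the calls, 42.4% were higher with LPC in the report, 53.1% with median centring and 50.9% with no filter. Members higher with LPC, 0 in the report, counted 1 with quantile normalization, 2 with median centring, 1 with the replicate block (Hsp90aa1, adjusted p = 0.0169) and 3 with removal of GC and length trends. Members lower counted 0 with no filter and 0 to 1 with a library left out. The sign turned for Hsf1 (-0.039) and Hspa4 (0.035) once GC and length trends were removed. With a library left out, the log2 change of Hsf1 ran from -0.020 to 0.045, below 0 without vehicle replicate 2 (-0.0062) or LPC replicate 2, and that of Hspa9 from -0.018 (without LPC replicate 2) to 0.12. The cause was not tested. Of the members' other values, 102 kept direction and side of the threshold, 7 newly passed and 3 no longer passed. All values of Hspa1b, whose direction the filter favoured, are among the 102. Deviations of same-numbered libraries correlated at 0.02, 0.56 and 0.41 across genes for replicates 1, 2 and 3. LPC replicate 2 and vehicle replicate 3 correlated at -0.45, and LPC replicate 3 and vehicle replicate 2 at -0.50. Vehicle replicate 1 correlated best with LPC replicate 3 (0.06). These values do not settle whether the numbers mark pairs, and the main fit did not take them as pairs. Under the replicate block 8 HSP90 cochaperones rose, against 3 in the report. An estimated 10 to 46 reads per library, and the uncertain split of reads with Hspa1b, limit the values of Hspa1a.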
